A study of Mus musculus with 14 samples.

Results

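Ccr1, Ccr2, Cx3cr1 and Cxcr4 encode chemokine receptors that are best known from blood monocytes and the macrophages they give rise to. Each symbol matched 1 gene in the deposited table of 43432 mouse genes, and the 4 genes are described here in 14 RNA-seq libraries of sorted lung cells. All 4 reached at least 10 normalized counts in all 14 libraries and were among the 17390 genes tested. The cells came from male 129S1 mice aged 10 to 12 weeks that had received water or bleomycin (labelled 3 U/k) into the trachea. Bleomycin is a DNA-damaging drug that injures the lung when given by this route. The labels give no genetic change. Cells positive for SiglecF and CD11c, a pair of surface proteins that mark alveolar macrophages, were divided into those with high and those with low surface MHC class II (MHCII), the molecule that presents peptides to helper T cells. The groups were MHCII-low cells of water-treated control mice (2 libraries, labelled 1 and 3), MHCII-low cells 2 weeks and 4 weeks after bleomycin (3 libraries each) and MHCII-high cells at the same times (3 libraries each). MHCII-high cells of control mice were not analysed here. Nothing in the labels says whether replicates came from separate animals or pools, so p-values measure only the spread between these libraries.

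Chemokine receptors are G protein-coupled receptors that steer cell movement along gradients of small secreted proteins. Ccr2 binds Ccl2 and its relatives Ccl7, Ccl8 and Ccl12 and is needed for classical monocytes to leave the bone marrow. Cx3cr1 binds the membrane-tethered chemokine Cx3cl1 and is high on patrolling monocytes and on several tissue macrophages. Ccr1 binds Ccl3, Ccl5, Ccl6 and Ccl9 among others, and Cxcr4 binds Cxcl12 and retains leukocytes in the marrow. Resident alveolar macrophages are known for low Cx3cr1 and Ccr2, while monocytes that enter an injured lung carry both.

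On the mouse build GRCm38, Ccr1 lies on chromosome 9 from 123962124 to 123968692 on the minus strand, and Ccr2 on chromosome 9 from 124101950 to 124113557 on the plus strand. Cx3cr1 lies further from them on chromosome 9, from 119901616 to 120069879 on the minus strand, and Cxcr4 on chromosome 1 from 128588199 to 128592293 on the minus strand. All 4 are annotated as protein-coding. The start-site windows of the 3 genes that passed a test are shown. Ccr2 and Cx3cr1 both passed between the MHCII levels, and Ccr1 passed only against control. Each window is RefSeq sequence of GRCm38.p6, 300 bases in all, from 250 bases before to 50 bases after the annotated start, and capitals mark matches to the motifs searched.
Ccr2 (chr9:124101933-124102232, plus strand): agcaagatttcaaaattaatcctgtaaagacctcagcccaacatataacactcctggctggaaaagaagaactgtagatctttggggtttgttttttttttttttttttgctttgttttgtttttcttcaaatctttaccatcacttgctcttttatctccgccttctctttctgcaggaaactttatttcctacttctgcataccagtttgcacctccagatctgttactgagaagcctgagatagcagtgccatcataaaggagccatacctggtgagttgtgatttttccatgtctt
Cx3cr1 (chr9:120068247-120068546, minus strand): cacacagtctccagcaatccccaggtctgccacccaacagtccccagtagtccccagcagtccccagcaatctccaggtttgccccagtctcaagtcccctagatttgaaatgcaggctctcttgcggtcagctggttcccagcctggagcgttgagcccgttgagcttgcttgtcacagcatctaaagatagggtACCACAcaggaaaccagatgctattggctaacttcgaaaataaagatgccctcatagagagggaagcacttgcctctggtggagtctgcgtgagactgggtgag
Ccr1 (chr9:123968643-123968942, minus strand): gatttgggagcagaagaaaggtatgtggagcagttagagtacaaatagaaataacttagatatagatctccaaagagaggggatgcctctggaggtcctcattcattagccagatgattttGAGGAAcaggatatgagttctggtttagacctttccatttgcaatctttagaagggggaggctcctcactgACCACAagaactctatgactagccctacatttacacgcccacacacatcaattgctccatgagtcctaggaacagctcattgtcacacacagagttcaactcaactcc
The motifs were GAGGAA (PU.1 and other ETS factors), TTGCNNAA (C/EBP), TGTGGT (RUNX) and ACGTG (HIF), searched on both strands and without overlap between matches of different motifs in these windows. The Ccr1 window held GAGGAA at position -129 from the start and TGTGGT, on the opposite strand and so printed as ACCACA, at -58. Cx3cr1 held the RUNX motif at -54, also on the opposite strand. No match was found in the Ccr2 window or in that of Cxcr4. Among 32851 RefSeq windows of this length, 28.3% held GAGGAA, 10.8% TTGCNNAA, 16.8% TGTGGT and 19.6% ACGTG, so these matches are common. GC content was 38.0% for Ccr2, 54.3% for Cx3cr1, 44.0% for Ccr1 and 59.3% for Cxcr4.

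Library depth, recovered from the values, ranged from 15106511 to 88055441 reads, and mitochondrial ribosomal RNA took 3.12% to 28.99% of them. The genes of both sort markers were high in all groups: mean Siglecf, which encodes SiglecF, lay between 3520 and 8304 normalized counts and mean Itgax, which encodes CD11c, between 29370 and 40450. Defining markers of classical monocytes were near 0, with Ly6c2 at no more than 43.4 and Plac8 at no more than 17.5 normalized counts in any library. Other monocyte or interstitial macrophage markers were present, as given below, and which cells of the sort carried the receptors was not tested. On the second principal component of all tested genes, replicate 3 of 4-week MHCII-high was far from the rest (-146.4, with the other libraries between -44.7 and 73.5), so results that rest on it are also given without it. Fewer recovered reads stood behind Cx3cr1 than behind the other receptors (11 to 4068 per library, against 537 to 3548 for Ccr1, 399 to 11750 for Ccr2 and 1279 to 10515 for Cxcr4). In bulk samples such as these, fewer cells that carry a transcript and less of it per cell cannot be told apart. Statements below that groups do not overlap, or lie wholly above or below others, describe only the libraries. The share of all genes without overlap was not counted, and with so few libraries unchanged genes can separate too.

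Ccr2 was high in MHCII-high cells and low in MHCII-low cells at both times after bleomycin. MHCII-high libraries held 6045.7, 5789.2 and 8004.2 normalized counts at 2 weeks and 3631.7, 3305.8 and 2851.7 at 4 weeks. MHCII-low libraries held 892.7, 834.4 and 963 at 2 weeks and 549.7, 648 and 669.5 at 4 weeks, and the controls 726.1 and 639.7. Every MHCII-high library lay above every MHCII-low library. The means were 6613 ± 1210 against 896.7 ± 64.4 at 2 weeks (SD, n = 3 each) and 3263 ± 392 against 622.4 ± 63.9 at 4 weeks (SD, n = 3 each), beside 682.9 ± 61.1 in the controls (SD, n = 2). The log2 fold change of high over low was 2.87 ± 0.19 (standard error; 95% interval 2.48 to 3.26; 7.3-fold; adjusted p = 4.7e-09 by limma) at 2 weeks. At 4 weeks it was 2.39 ± 0.19 (2.00 to 2.78; 5.23-fold; adjusted p = 5.6e-08 by limma). By p-value Ccr2 ranked 3 of 17390 genes at 2 weeks and 8 at 4 weeks.

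Cx3cr1 showed the widest gap of the 4 receptors between the MHCII levels. MHCII-high libraries held 2093.1, 2954 and 2477.8 normalized counts at 2 weeks and 1017.7, 1317.9 and 843.5 at 4 weeks. In MHCII-low libraries it was 67.1, 121 and 150.3 at 2 weeks and 54, 32.4 and 11.7 at 4 weeks, and the controls held 105.6 and 61.1. No MHCII-low library came near the MHCII-high range. The means were 2508 ± 431 against 112.8 ± 42.2 at 2 weeks and 1060 ± 240 against 32.7 ± 21.2 at 4 weeks (SD, n = 3 each), beside 83.35 ± 31.5 in the controls (SD, n = 2). High exceeded low by a log2 fold change of 4.52 ± 0.46 (95% interval 3.56 to 5.49; 23-fold; adjusted p = 5.4e-06 by limma) at 2 weeks. The difference at 4 weeks was 5.19 ± 0.46 (4.23 to 6.15; 36.5-fold; adjusted p = 3.7e-07 by limma). Its ranks by p-value were 10 and 13. The value of 11.7 at 4 weeks rests on 11 reads, so the level behind the 4-week fold is a low count.

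**Figure D1:**
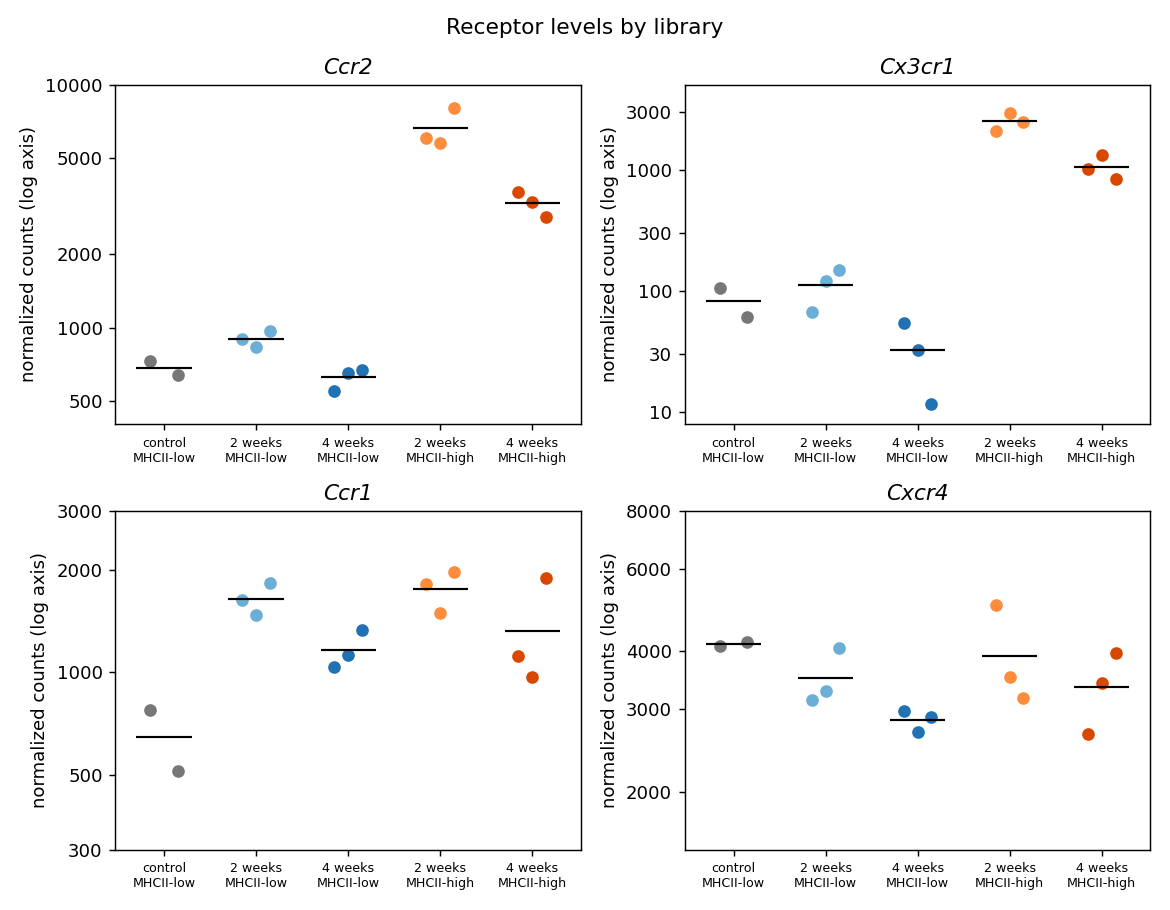
Normalized counts of Ccr2, Cx3cr1, Ccr1 and Cxcr4 in each of the 14 libraries (points, log axis) with the group mean (line), for control, 2-week and 4-week MHCII-low cells and 2-week and 4-week MHCII-high cells. Ccr2 and Cx3cr1 separate the MHCII levels without overlap, Ccr1 is lowest in the controls (775.2 and 513.1), and Cxcr4 stays between 2661.9 and 5032.6.

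Of the 4 receptors, 2 were higher in MHCII-high cells at 2 weeks, where 2.87% of all genes tested passed (2.29% higher, 0.581% lower), and the same 2, Ccr2 and Cx3cr1, were higher at 4 weeks, where 2.5% passed (1.96% higher, 0.535% lower). Both kept their calls when any 1 library was left out, in the fit with the mitochondrial ribosomal RNA share as a covariate and in fits of only the groups compared. Without replicate 3 of the 4-week MHCII-high cells the calls at 4 weeks remained among those. With no MHCII-high control libraries analysed, the MHCII-high libraries can be set against the controls only by level: mean Ccr2 was 9.68 times the control mean at 2 weeks and 4.78 times at 4 weeks, and mean Cx3cr1 30.1 and 12.7 times. The libraries of these groups did not overlap.

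Markers of other cell types moved with the same contrast. Of 12 tested markers of monocytes or interstitial macrophages, 7 were higher in MHCII-high cells at 2 weeks (median log2 difference 2.03, against 0.08 over all genes) and 6 at 4 weeks (2.12 against -0.03). Their summed level was 63180 to 75840 normalized counts in 2-week MHCII-high and 35190 to 45730 in 4-week MHCII-high libraries, against 30850 to 37220 and 18690 to 23640 in MHCII-low libraries and 17090 to 19480 in controls. Among the 10 dendritic cell markers 3 were higher at 2 weeks and 4 at 4 weeks (medians 1.99 and 2.66, or 1.81 and 2.17 with genes at 0 in a whole group set to a floor of 3 reads per library). Dendritic cell markers summed to 986.2 to 2115 and 1328 to 2190 in 2-week and 4-week MHCII-high libraries, against 151.4 to 227.7 and 102.3 to 230.4 in MHCII-low libraries, where Cd209a and Siglech were at 0. Without replicate 3 of the 4-week MHCII-high cells 5 passed at 4 weeks. Of 6 B cell markers 2 and 4 were higher (medians 4.03 and 5.32, the latter 4.11 with the floor), with sums of 1234 to 1680 and 804.5 to 3830 in MHCII-high libraries. In MHCII-low libraries the B cell sums were 49.4 to 219.2 at 2 weeks and 40.5 to 2187 at 4 weeks. Of 10 alveolar macrophage markers 5 were lower in MHCII-high cells at 2 weeks and 3 at 4 weeks (medians -0.66 and -0.32), among them Marco, a scavenger receptor (log2 fold change -1.91 ± 0.22, adjusted p = 1.4e-05 by limma, and -1.19 ± 0.22, adjusted p = 0.0025). Of the other lists, 0 of 8 and 1 of 8 tested T or NK cell markers, 3 and 1 of 6 epithelial markers, and 0 of 6 neutrophil, 0 of 4 eosinophil and 0 of 7 fibroblast or endothelial markers were higher at 2 and 4 weeks, and none was lower. Ccr2 and Cx3cr1 are also known from dendritic cells, and the part of these markers in the receptor differences was not tested.

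With time after bleomycin, Ccr2 fell in MHCII-high cells. Its log2 fold change from 2 to 4 weeks was -1.01 ± 0.19 (95% interval -1.40 to -0.62; 0.496-fold; adjusted p = 0.0095 by limma), and the 3 libraries of each time did not overlap. It was the only one of the 4 receptors to pass in this contrast, in which 1.07% of genes tested passed (0.311% higher, 0.759% lower). The call did not hold without replicate 3 of the 2-week MHCII-high cells (-0.87, adjusted p = 0.074 by limma) or in a fit of only these 2 groups (-1.01, adjusted p = 0.13 by limma). Cx3cr1 in MHCII-high cells differed by -1.25 ± 0.46 (-2.21 to -0.29, adjusted p = 0.21 by limma) and did not pass. Summed monocyte and interstitial macrophage markers were also lower at 4 weeks, as given above, with 0 of 12 passing in either direction and a median of -0.98 against -0.07 over all genes. Their part in the fall of Ccr2 was not tested.

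In MHCII-low cells no receptor passed between 4 and 2 weeks, where 0.857% of genes passed (0.109% higher, 0.748% lower). Cx3cr1 came closest, at -1.92 ± 0.46 (95% interval -2.88 to -0.96, adjusted p = 0.052 by limma). Its libraries held 11.7 to 54 normalized counts at 4 weeks and 67.1 to 150.3 at 2 weeks. The adjusted p of this difference lay on either side of the threshold depending on the setting. It was 0.014 without replicate 1 of the 4-week MHCII-low cells and 0.039 without replicate 1 of the 2-week MHCII-low cells, both by limma. It was 0.035 by edgeR and 0.00064 by DESeq2. It reached 0.26 by limma with another library left out and 0.44 by limma under another alternative. Ccr2 differed by -0.53 ± 0.19 (-0.92 to -0.14, adjusted p = 0.34 by limma).

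The interaction asks whether the high-minus-low difference changed between 2 and 4 weeks. For Ccr2 it was -0.48 ± 0.26 (95% interval -1.03 to 0.07; adjusted p = 0.89 by limma) and for Cx3cr1 0.66 ± 0.65 (-0.70 to 2.03; adjusted p = 0.97 by limma). By limma 0 of 17390 genes passed this test (0% of genes tested), while 987 had an unadjusted p under 0.05. With edgeR 0 genes passed and with DESeq2 56. A change of the gap within these intervals was not detectable with 3 libraries a group.

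Ccr1 was lower in both control libraries than in any library after bleomycin, and passed in 1 comparison, that of 2-week MHCII-low cells with control. The controls held 775.2 and 513.1 normalized counts. MHCII-low libraries held 1637.8, 1477.7 and 1841.8 at 2 weeks and 1035.1, 1122.6 and 1331.6 at 4 weeks. In MHCII-high libraries it was 1825.5, 1495.8 and 1983.5 at 2 weeks and 1117.6, 972.8 and 1897.5 at 4 weeks. The MHCII-high and MHCII-low libraries overlapped at each time. The means were 644.2 ± 185 in controls (SD, n = 2), 1652 ± 182 and 1163 ± 152 in MHCII-low cells at 2 and 4 weeks, and 1768 ± 249 and 1329 ± 497 in MHCII-high cells (SD, n = 3 each).

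Ccr1 rose in MHCII-low cells 2 weeks after bleomycin by a log2 fold change of 1.38 ± 0.27 against control (95% interval 0.82 to 1.94; 2.61-fold; adjusted p = 0.0059 by limma; rank 133). It was the only receptor of the 4 to pass in this comparison, in which 1.91% of genes passed (1.48% higher, 0.426% lower). The call rests on control replicate 3: without it the difference was 1.09 (adjusted p = 0.23 by limma), and in a fit of only these 2 groups it was 1.38 (adjusted p = 0.088). At 4 weeks Ccr1 differed from control by 0.87 ± 0.27 (0.31 to 1.43; adjusted p = 0.53 by limma). None of the 4 receptors passed there, against 0.046% of genes tested (0.0345% higher, 0.0115% lower). Between the MHCII levels Ccr1 differed by 0.09 (-0.41 to 0.59; adjusted p = 0.91 by limma) at 2 weeks and 0.14 (-0.36 to 0.64; adjusted p = 0.85) at 4 weeks. The 4-week difference was -0.15 without replicate 3 of the 4-week MHCII-high cells, the library with 1897.5 normalized counts. From 2 to 4 weeks Ccr1 differed by -0.51 in MHCII-low (-1.01 to -0.01; adjusted p = 0.65 by limma) and -0.46 in MHCII-high cells (-0.97 to 0.04; adjusted p = 0.4). For Ccr2 and Cx3cr1 the MHCII-low cells at 2 weeks differed from control by 0.39 (-0.04 to 0.83; adjusted p = 0.46 by limma) and 0.41 (-0.67 to 1.48; adjusted p = 0.82), and at 4 weeks by -0.14 (-0.57 to 0.30; adjusted p = 0.97) and -1.51 (-2.59 to -0.43; adjusted p = 0.64).

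The monocyte and interstitial macrophage markers moved in the same comparison as Ccr1, with 8 of 12 higher in 2-week MHCII-low cells than in controls (median 1.77 against -0.09 over all genes). At 4 weeks 1 of 12 was higher than control. Neutrophil markers summed to 9985 to 10790 in 2-week MHCII-low libraries and 4546 to 8079 in controls, with 1 of 6 tested markers higher, the collagenase gene Mmp8 (2.24 ± 0.22, adjusted p = 1.9e-06 by limma), and Elane at 0. Ccr1 is also known from neutrophils, and the part of these markers in its rise was not tested.

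Cxcr4 was the most abundant of the 4 receptors per length in every group and passed in none of the comparisons. The controls held 4096.4 and 4190 normalized counts, and the MHCII-low libraries 3148.1, 3288.3 and 4066.3 at 2 weeks and 2980.9, 2682.4 and 2884 at 4 weeks. MHCII-high libraries held 5032.6, 3517.6 and 3167.6 at 2 weeks and 2661.9, 3417.2 and 3959.3 at 4 weeks. The means were 4143 ± 66.2 (SD, n = 2), 3501 ± 495, 2849 ± 152, 3906 ± 991 and 3346 ± 652 (SD, n = 3 each) in controls, MHCII-low cells at 2 and 4 weeks and MHCII-high cells at 2 and 4 weeks. Ordered by mean, from control through 2-week MHCII-high, 2-week MHCII-low and 4-week MHCII-high to 4-week MHCII-low, each group overlapped the next. Both controls lay above all libraries of 2-week MHCII-low, 4-week MHCII-low and 4-week MHCII-high cells. Against control, MHCII-low cells differed by -0.25 (95% interval -0.69 to 0.19; adjusted p = 0.7 by limma) at 2 weeks and -0.54 (-0.98 to -0.10; adjusted p = 0.7) at 4 weeks. High against low differed by 0.14 (-0.25 to 0.53; adjusted p = 0.8 by limma) and 0.21 (-0.18 to 0.61; adjusted p = 0.65), and the sign at 2 weeks turned to -0.06 without replicate 1 of the 2-week MHCII-high cells. From 2 to 4 weeks the differences were -0.29 (-0.68 to 0.10; adjusted p = 0.87 by limma) in MHCII-low and -0.21 (-0.61 to 0.18; adjusted p = 0.67) in MHCII-high cells.

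**Figure D2:**
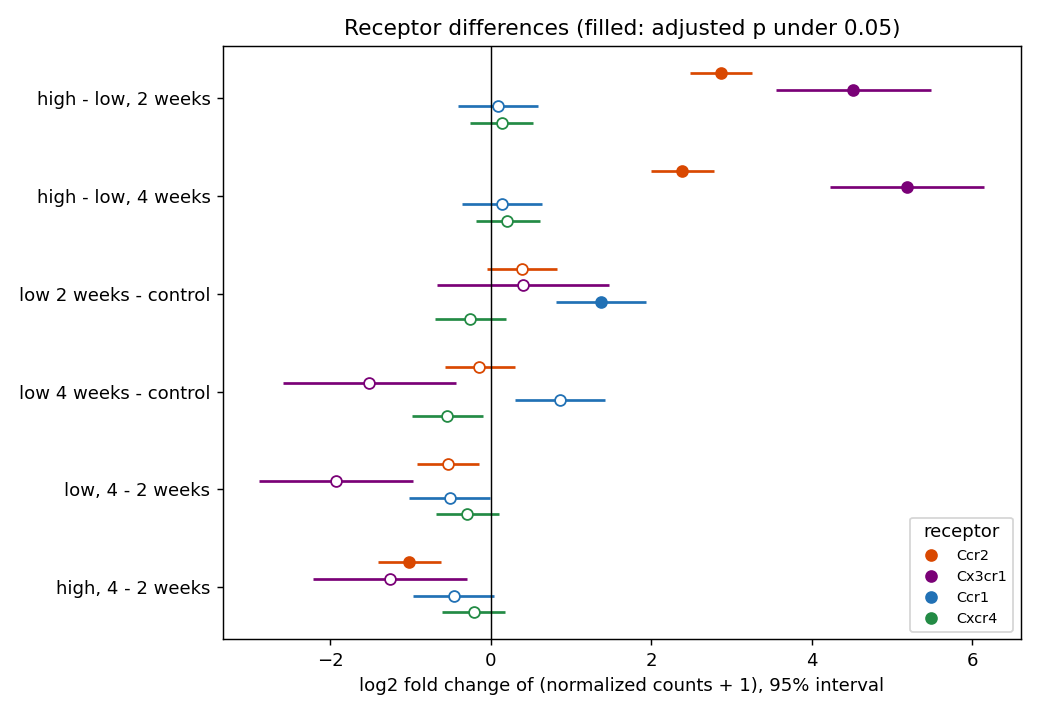
Log2 fold changes of (normalized counts + 1) for the 4 receptors in 6 comparisons, with 95% intervals from limma. Filled points passed an adjusted p of 0.05, which were Ccr2 and Cx3cr1 in both high-minus-low contrasts, Ccr1 in 2-week MHCII-low cells against control, and Ccr2 in MHCII-high cells from 2 to 4 weeks.

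Ordered by group mean, Ccr2 ran from 2-week MHCII-high through 4-week MHCII-high and 2-week MHCII-low to control and 4-week MHCII-low, and only the last pair overlapped. Cx3cr1 had the same order, with an overlap only between 2-week MHCII-low and control. Ccr1 ran from 2-week MHCII-high through 2-week MHCII-low, 4-week MHCII-high and 4-week MHCII-low to control, with each neighbouring pair overlapping except the last.

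Set per kb of exon, the balance of the receptors differed with the MHCII level. In normalized counts per kb, mean Cxcr4 was 2290 in controls, 1940 and 1580 in MHCII-low cells at 2 and 4 weeks, and 2160 and 1850 in MHCII-high cells. Mean Ccr2 was 107, 140 and 97.4 in the MHCII-low groups in that order and 1030 and 510 in MHCII-high cells. Cx3cr1 stood at 22.3, 30.1 and 8.74 against 670 and 283, and Ccr1 at 228, 584 and 411 against 625 and 470. Cxcr4 thus made up 84.5% to 88.6% of the 4 receptors' summed level per kb in controls and 70.3% to 78.0% in MHCII-low libraries after bleomycin, but 40.1% to 56.4% in MHCII-high libraries at 2 weeks and 54.4% to 62.0% at 4 weeks. The ratio of Ccr2 to Cx3cr1 per kb was 1.15 to 1.89 and 1.47 to 2.09 in MHCII-high libraries at 2 and 4 weeks. In MHCII-low libraries it was 3.75 to 7.79 at 2 weeks and 5.96 to 33.5 at 4 weeks, and 4.02 to 6.13 in controls. Every MHCII-high library thus held less Ccr2 per Cx3cr1 than every MHCII-low library. These ratios use the same values as the tests above and carry no test of their own.

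Ccr1 and Ccr2 lie in a cluster of chemokine receptor genes on chromosome 9 that also holds, among others, Ccr9, Cxcr6, Xcr1, Ccr3 and Ccr1l1. Ccr1 and Ccr2 passed in different comparisons, as given above. Ccr3, the eotaxin receptor between Ccr1 and Ccr2, averaged 30.67 to 122.1, Cxcr6 42.3 to 117.3 and Xcr1 24.2 to 83.03. Ccr1l1, a Ccr1-like gene beside Ccr1, reached no more than 1 normalized count in any library. Of the 50-base stretches in Ccr2 transcripts, 129 of 6758 (1.91%) occur in another gene's transcripts. For Cx3cr1 the number was 47 of 4453 (1.06%), and for Ccr1 and Cxcr4 it was 0. How the authors counted reads that fit several genes is not given in the sources used here. The span of Cx3cr1 holds exons of 9 other genes, with 78 of its 4505 exon bases shared, and counting by strand is not stated.

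Other chemokine receptors were also higher in MHCII-high cells. Of 8 tested CC receptors outside the 4, 5 were higher and 0 lower at 2 weeks (median log2 difference 2.04, against 0.08 over all genes), and 3 were higher and 0 lower at 4 weeks (1.01 against -0.03, or 0.85 with genes at 0 in a whole group set to the floor). Without replicate 3 of the 4-week MHCII-high cells 4 were higher at 4 weeks. Ccr7, which guides dendritic cells and lymphocytes to lymph nodes, averaged 13.7 in MHCII-low and 284.9 in MHCII-high cells at 2 weeks and 8.867 and 246.2 at 4 weeks. Its log2 fold changes were 4.70 ± 1.05 (adjusted p = 0.015 by limma) and 5.45 ± 1.05 (adjusted p = 0.0044); the 2-week call was lost without any 1 of 4 libraries, replicate 2 or 3 of MHCII-low or 1 or 2 of MHCII-high cells (adjusted p up to 0.087). Ccr6, a receptor of B cells and some dendritic cells, was at 0 in all 4-week MHCII-low libraries and at 13.4, 22 and 108.2 in the MHCII-high ones (adjusted p = 0.018 by limma, up to 0.073 without any 1 MHCII-low library or replicate 1 of MHCII-high). Ccr6 at 2 weeks (4.53 ± 1.15, adjusted p = 0.034 by limma) lost its call without any library but replicate 3 of MHCII-low (adjusted p up to 0.2). Ccr9 at 2 weeks (2.63 ± 0.63, adjusted p = 0.023 by limma) lost its call without any 1 of the 6 libraries (up to 0.089). Mean Ccr9 was 154.2 in the 2-week MHCII-high group, near the 124.8 of controls. The 2-week MHCII-low group stood apart from both, at 24.07. Its difference from control was -2.32 ± 0.70 and did not pass (adjusted p = 0.11 by limma). The 4-week means of Ccr9 were 109.8 (low) and 220.6 (high). In fits of only the groups compared, the 4-week calls of Ccr7 (adjusted p = 0.15 by limma) and Ccr6 (0.11) did not pass. At 2 weeks Ccr7, Ccr9 and Ccr6 also lost their calls with no filter and with the mitochondrial covariate (highest adjusted p over the alternatives 0.073, 0.087 and 0.11). Ccr7 is itself on the dendritic cell list, and the part of the dendritic cell and B cell markers given above in these differences was not tested.

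The next list held 10 tested genes, the CXC, XC and scavenger receptors and Cmklr1. Their median high-minus-low differences were 0.77 and 0.90 at 2 and 4 weeks, against 0.08 and -0.03 over all genes. In MHCII-high cells 1 of the 10 was higher at each time, where 2.29% and 1.96% of all genes tested were higher. It was Cmklr1, the receptor of chemerin, which is not a chemokine, so no CXC, XC or scavenger receptor passed here. Cmklr1 averaged 117.8 in MHCII-low and 2765 in MHCII-high cells at 2 weeks and 32.9 and 1269 at 4 weeks. Its log2 fold changes were 4.82 ± 0.62 (adjusted p = 6.5e-05 by limma) and 5.23 ± 0.62 (adjusted p = 1.5e-05), and both calls held with any 1 library left out. In MHCII-low cells at 2 weeks, 2 of these 10 were higher than in controls, against 1.48% of all genes tested (median 0.12 against -0.09 over all genes). They were Cxcr2, the receptor that draws neutrophils (2.36 ± 0.41, adjusted p = 0.0019 by limma; 0.11 without control replicate 3) and Cmklr1 (3.29 ± 0.69, adjusted p = 0.011; up to 0.41 without control replicate 3 or 2-week MHCII-low replicate 3). Cxcr2 was back at 833.5 ± 301 (SD, n = 3) in MHCII-low cells at 4 weeks, from 4179 ± 669 at 2 weeks (SD, n = 3) and against 846.8 ± 372 in controls (SD, n = 2). Its fall from 2 to 4 weeks was -2.37 ± 0.36 (adjusted p = 0.0011 by limma) in MHCII-low cells. In MHCII-high cells it was -1.55 ± 0.36 (adjusted p = 0.041 by limma), a call lost without any 1 of the 2-week MHCII-high libraries or without replicate 3 of the 4-week ones (adjusted p up to 0.17), by edgeR, by DESeq2 and under 3 other alternatives (up to 0.32). In fits of only the groups compared, Cxcr2 (adjusted p = 0.064 by limma) and Cmklr1 (0.21) in 2-week MHCII-low cells against control, and Cxcr2 from 2 to 4 weeks in MHCII-low cells (0.064), did not pass.

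**Figure D3:**
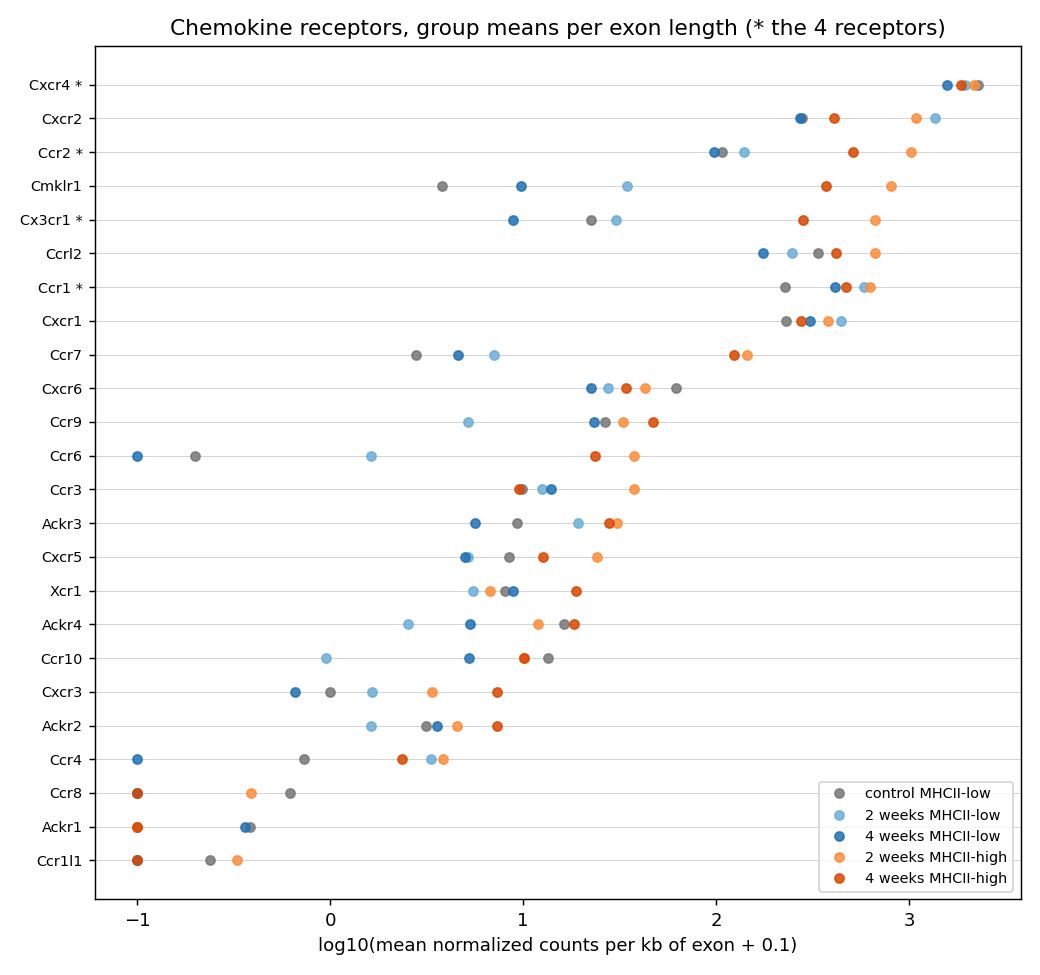
Mean level of chemokine receptor genes and Cmklr1 per kb of exon in the 5 groups, as log10(normalized counts per kb + 0.1). Genes are ordered by their highest group mean, with the 4 receptors marked by asterisks. Cxcr4 is the highest of those shown. For Ccr2, Cx3cr1, Cmklr1 and Ccr7 both MHCII-high points lie to the right of all 3 MHCII-low points. The same holds for several other receptors shown, among them Ccr6 and Ccr9, so it is not particular to those named first.

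The ligands of the 4 receptors were unequally present in the same libraries. At 2 weeks 4 of the 12 tested passed as higher in MHCII-high cells and 0 as lower (median 1.52, against 0.08 over all genes), and 2 were higher and 0 lower at 4 weeks (0.93 against -0.03, or 0.75 with genes at 0 in a whole group set to the floor). At 4 weeks 1 was higher without replicate 3 of the 4-week MHCII-high cells. Ccl2, the main ligand of Ccr2, averaged 256.9 against 20.07 at 2 weeks and 115.6 against 22.17 at 4 weeks (high against low). Its log2 fold change was 3.81 ± 0.79 (adjusted p = 0.0089 by limma) at 2 weeks, lost without replicate 1 of the MHCII-low or replicate 2 of the MHCII-high cells (adjusted p up to 0.064), and 2.70 (adjusted p = 0.079) at 4 weeks. Ccl9, a ligand of Ccr1, averaged 4397 against 1838 at 2 weeks and 2710 against 1205 at 4 weeks (1.29 ± 0.31, adjusted p = 0.023, and 1.30 ± 0.31, adjusted p = 0.024, both by limma). Ccl5 was lower in amount, at 54.77 against 2.867 and 124.2 against 4.8 (adjusted p = 0.023 by limma at both times). The Ccl9 call was lost without any library but replicate 1 of MHCII-low at 2 weeks (adjusted p up to 0.1), and without replicate 1 of MHCII-low or 3 of MHCII-high cells at 4 weeks (up to 0.15). The Ccl5 call was lost without any library but replicate 2 of MHCII-low at 2 weeks (up to 0.1), and without any but replicate 2 of MHCII-high at 4 weeks (up to 0.096). Ccl8, another ligand of Ccr2, passed at 2 weeks (49.83 against 2.667 on average, adjusted p = 0.047 by limma) and lost the call without any library but replicate 2 of MHCII-low (up to 0.23). Under other alternatives, among them no filter and the mitochondrial covariate, Ccl9, Ccl5 and Ccl8 also lost their calls at 2 weeks (adjusted p up to 0.16, 0.13 and 0.3 by limma, edgeR or DESeq2), and Ccl9 and Ccl5 at 4 weeks (up to 0.33 and 0.12).

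Cx3cl1, the ligand of Cx3cr1, went the other way from its receptor in MHCII-high cells. It held 332.6 to 359.1 normalized counts at 2 weeks and 773.5 to 1085.7 at 4 weeks, a log2 fold change of 1.47 ± 0.29 (95% interval 0.87 to 2.08, adjusted p = 0.016 by limma). Cx3cr1 held 2093.1 to 2954 and 843.5 to 1317.9, a difference of -1.25 that did not pass (adjusted p = 0.21 by limma). The Cx3cl1 call was lost without any 1 of the 2-week MHCII-high libraries (adjusted p up to 0.067) and in a fit of only these groups (0.13). At 2 weeks Cx3cl1 was 346.1 ± 13.3 in MHCII-high cells, against 679.1 ± 24.2 in MHCII-low cells (SD, n = 3 each), a difference of -0.97 that did not pass (adjusted p = 0.079 by limma). Ccl6 was by far the most abundant ligand, with group means of 21470 to 37110, and Cxcl12, the ligand of Cxcr4, among the scarce ones, with group means of 20.87 to 104.7. Neither passed in any comparison.

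**Figure D4:**
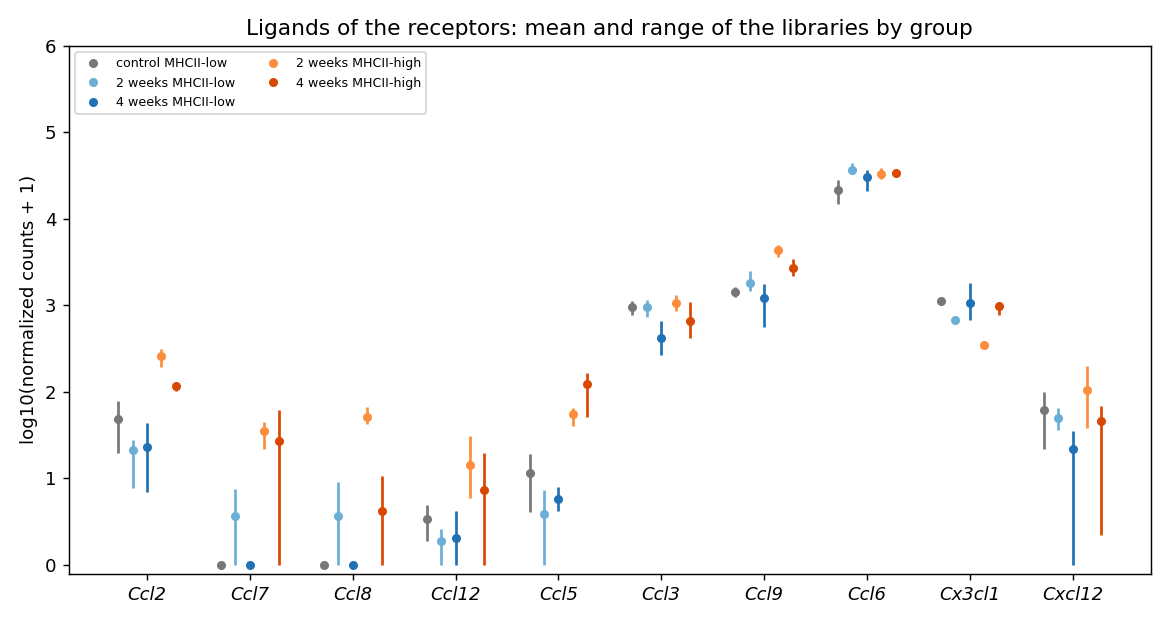
Level of 10 ligands of the receptors by group, as log10(normalized counts + 1), with the mean (point) and the range of the libraries (line). Ccl2 is highest in the MHCII-high groups (256.9 and 115.6 on average), Cx3cl1 is lowest in 2-week MHCII-high cells (346.1), and Ccl6 averages at least 21470 in every group.

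Among 22 tested genes of chemokine receptor signalling and desensitisation, 1 passed as higher in MHCII-high cells at 2 weeks and 2 at 4 weeks, and none as lower (medians 0 and 0, against 0.08 and -0.03 over all genes). Over all genes tested, 2.29% and 1.96% were higher. The 4-week count was 1 without replicate 3 of the 4-week MHCII-high cells. Arrb1, a beta-arrestin that ends receptor signalling, was the gene higher at both times, by 1.16 ± 0.23 (adjusted p = 0.0058 by limma; 0.054 without replicate 1 of the 2-week MHCII-high cells) and 1.32 ± 0.23 (adjusted p = 0.0016; 0.081 in a fit of only the groups compared). In 2-week MHCII-low cells 2 of the 22 were higher than in controls (median 0.22 against -0.09), where 1.48% of all genes tested were higher. Both calls were lost without control replicate 1, with the mitochondrial covariate and in a fit of only these groups (adjusted p up to 0.31 by limma).

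Of 15 regulators of the monocyte and macrophage programme, 3 were higher in MHCII-high cells at 2 weeks and 2 at 4 weeks, with none lower (medians 0.21 and 0.04). The shares of all genes tested that were higher were 2.29% and 1.96%. The 4-week count was 3 with replicate 3 of the 4-week MHCII-high cells left out. Maf, a transcription factor of macrophages, passed at both times, by 2.77 ± 0.52 (adjusted p = 0.004 by limma) and 3.16 ± 0.52 (adjusted p = 0.00096 by limma), and both calls held with any 1 library left out. In a fit of only the groups compared the 4-week call did not pass (adjusted p = 0.092 by limma). Maf averaged 106.9, 75.63 and 44.2 normalized counts in control, 2-week and 4-week MHCII-low cells and 514 and 432.2 in MHCII-high cells. Spi1, which encodes PU.1, averaged 8401 to 12220 over the groups and Runx1 18210 to 22510.

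Among 17 other monocyte genes, 3 were higher in MHCII-high cells at each time and none lower (medians 0.39 and -0.10, against 0.08 and -0.03 over all genes). Of all genes tested, 2.29% and 1.96% were higher. Without replicate 3 of the 4-week MHCII-high cells 2 were higher at 4 weeks. Itgam, the CD11b integrin subunit, averaged 9192 against 2047 at 2 weeks and 4722 against 488.4 at 4 weeks, log2 fold changes of 2.28 ± 0.30 (adjusted p = 0.00011 by limma) and 3.26 ± 0.30 (adjusted p = 6.8e-07). F13a1, a coagulation factor gene of monocytes, was higher at 4 weeks by 5.99 ± 0.93 (adjusted p = 0.00056 by limma), but did not pass in a fit of only the groups compared (adjusted p = 0.1). Ly6c2 and Plac8 were near 0, as given above.

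The genes with profiles most like each receptor were found by the root mean square difference of log2 profiles over the 14 libraries, each centred on its own mean. For Ccr2 they were Peak1 (0.41), Gas7 (0.41) and Mef2c (0.45), where the median over all genes tested was 1.54. Peak1 encodes a cytoskeleton-associated pseudokinase and Mef2c a transcription factor. For Cx3cr1 they were Stab1, a scavenger receptor (0.57), C3ar1, the receptor of complement C3a (0.83), and Rasgrp3, an activator of Ras (0.88), against a median of 2.60. Mean C3ar1 was 138.2 in controls, 459.6 and 163.6 in MHCII-low cells at 2 and 4 weeks and 8065 and 2900 in MHCII-high cells. Like Cx3cr1 it was highest in the MHCII-high groups. In 4-week MHCII-low cells its mean lay above control, while that of Cx3cr1 lay below (32.7 against 83.35). For Ccr1 they were Fam213a (0.20), the lysozyme gene Lyz2 (0.21) and the cathepsin gene Ctss (0.22), against 0.86. Lyz2 averaged 615700 in controls, 1197000 and 827800 in MHCII-low and 1390000 and 966600 in MHCII-high cells, the same order as Ccr1. For Cxcr4, whose profile was nearly flat, they were Pcnx (0.16), Slc25a51 (0.17) and Fancm (0.18), against 0.70. Ccr2 and Cx3cr1 differed from each other by 1.27 on this measure and Ccr1 and Cxcr4 by 0.59, so no receptor was among the closest genes of another.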

How the data were processed

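RNA-seq was made from sorted lung cells in 14 libraries of 5 groups. Lungs were perfused and broken up with enzymes (collagenase, dispase, DNase) per the labels' protocols, mRNA was captured on beads, and cDNA was made with a NuGen Ovation kit and turned into libraries with Nextera XT. The labels name a pair of sorter models without saying which sample each sorted, and describe no molecular identifiers. The deposited values are normalized counts (a signal per gene, 1 decimal) made by the authors. STAR, DESeq2 and mm10 are named, without versions or roles, in the submitters' processing notes; the counting tool, its strand setting and its handling of reads that fit several genes remain unstated in the labels and notes. The mice were of strain 129S1, whereas mm10 is a C57BL/6J genome. Of the 43432 genes, 652 had no symbol.

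In all 14 libraries, 100% of values up to 100 reads were whole multiples of the value of 1 read within 0.06 normalized counts, which gave the number of reads behind each value. In control replicate 1 a read is worth only 0.3896, so this agreement is a looser test there. The 17390 genes that reached 10 normalized counts in 2 or more libraries entered a test on log2(value + 1) with limma 3.58.1 (mean-variance trend) in R 4.3.3, in 1 fit of all 14 libraries with 1 coefficient per group. P-values were adjusted over all genes tested (Benjamini-Hochberg) with a threshold of 0.05, and log2 fold changes refer to value + 1, so those of low genes are understated. The comparisons were MHCII-high against MHCII-low at each time, MHCII-low against control at each time, 4 against 2 weeks at each MHCII level, and the interaction; those against control share the same 2 control libraries. The fit was tested on simulated data. Alternatives were another pseudocount, other filters, TMM scaling, edgeR 4.0.16 and DESeq2 1.42.0 on the recovered reads, a mitochondrial ribosomal RNA covariate, a GC correction, a replicate block, fits of only the groups compared, and each library left out; list counts without replicate 3 of the 4-week MHCII-high cells were added after seeing the data. Intervals cover 95%. The GC percent used in the correction and the exon lengths are per gene as the authors deposited them; GC of the start-site windows was computed from RefSeq.

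The members and gene lists were chosen with earlier results of these data known. Named are the 4 receptors in every comparison, from each list the called chemokine receptors and ligands (at most 4 per list and comparison, smallest p first), neighbouring receptor genes on chromosome 9, and the 3 genes most like each receptor. Maf, Itgam, F13a1, Arrb1, Marco, Mmp8, Spi1, Runx1, Siglecf, Itgax, Ly6c2, Plac8, Ccl6 and Cxcl12 fall outside this rule and were named after their values were seen. Some genes that the rule or the lists hold are counted but not reported here by name. Python 3.11.15 with numpy 2.4.6, pandas 2.3.3, scipy 1.17.1 and matplotlib 3.10.9 was used for summaries and plots.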

Additional observations from a re-analysis of the deposited data

How the results depend on the processing

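Ccr2 and Cx3cr1 kept their calls between the MHCII levels under every alternative and with each library left out. Over the receptors' 28 results, 299 of 308 alternatives and 171 of 184 fits with a library left out kept direction and side of the threshold. For the exceptions the cause was not tested unless fewer samples are named. Ccr1 in 2-week MHCII-low cells against control missed the threshold in the fit of only these groups (1.38, adjusted p = 0.088 by limma), and ranged from 1.09 to 1.68 with a library left out. Ccr2 from 2 to 4 weeks in MHCII-high cells missed it with only these groups (-1.01, adjusted p = 0.13) and ranged from -1.10 to -0.87. Cx3cr1 from 2 to 4 weeks passed by DESeq2 in MHCII-high cells (-1.24). In MHCII-low cells it passed with the CPM filter (-1.92), TMM (-1.94), edgeR (-1.83), DESeq2 (-1.80) and the GC correction (-1.93), and ranged from -2.39 to -1.33 with a library left out. Its highest adjusted p there was 0.44 over the alternatives and 0.26 with a library left out, both by limma. Sign changes were all of uncalled values. They were Cxcr4 between MHCII levels at 2 weeks (-0.06 to 0.27 with a library left out), Ccr1 at 4 weeks (-0.15 to 0.33), the Ccr1 interaction (-0.02 with the GC correction, and -0.24 to 0.24 with a library left out, with reversed values of -0.04, -0.07 and -0.24), and the Cxcr4 interaction (-0.06 to 0.27, with reversed values of -0.04, -0.05 and -0.06).

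Counts of genes called moved more. The count test on recovered reads (edgeR) called 432, 366, 306, 2, 112, 138 and 0 genes in the order below. Between MHCII levels at 2 weeks (499) they were 316 without a filter, 1055 by DESeq2, 207 with the mitochondrial covariate, 311 with only these groups and 203 to 455 with a library left out. At 4 weeks (434) they were 282, 898 by DESeq2, 56 with only these groups and 266 to 480. For MHCII-low cells against control at 2 weeks (332) they were 660 by DESeq2, 213 with the covariate, 36 with only these groups and 127 to 308. At 4 weeks (8) they were 65 without a filter (10.8% higher, against 75% before), 13 with the CPM filter, 2 by edgeR, 77 by DESeq2, 2 with the covariate, 5 with the GC correction, 16 with the replicate block, 0 with only these groups and 1 to 8. From 2 to 4 weeks in MHCII-high cells (186) they were 103 without a filter, 112 by edgeR, 632 by DESeq2 (41% higher), 0 with only these groups and 64 to 299. In MHCII-low cells (149) they were 322 by DESeq2 (24.5% higher), 15 with only these groups and 95 to 138. For the interaction they were 56 by DESeq2 and 0 to 2 with a library left out.

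Samples sharing a replicate number had weak correlations of their deviations from the group means (-0.06 to 0.11). Between MHCII-high and MHCII-low libraries of the same time they were 0.01 to 0.11. There the same-numbered library was the best match for replicates 1 and 3 at 2 weeks and 1 and 2 at 4 weeks. This check does not settle whether the numbers mark pairs. The labels do not say so, and the numbers were not taken as pairs. The replicate block changed no receptor's call, and gave Ccr2 2.87 and Cx3cr1 4.52 between MHCII levels at 2 weeks, Ccr1 1.48 against control and Ccr2 -1.01 over time. Only 2 control libraries stand behind each comparison with control.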
